A study of Homo sapiens with 6 samples.

Results

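The genes of human mitochondrial DNA were examined in RNA-seq data from HEK-293T, an immortal line of human embryonic kidney origin, with and without the tRNA acetylation adaptor THUMPD1. Members were all rows of the deposited count table whose symbol begins with MT-, which gave 37 of 58870 rows. These were 13 mRNAs, 2 ribosomal RNAs and 22 tRNAs. There were 3 libraries of unedited cells (genotype Thumpd+/+, here WT) and 3 of THUMPD1 KO cells (Thumpd-/-), all grown in DMEM with no treatment. The KO line was made with CRISPR-Cas9 and is a sorted single-cell clone, so loss of THUMPD1 cannot be told apart from other properties of that clone. Total RNA was depleted of ribosomal RNA and made into stranded paired-end libraries. Nothing in the labels says that replicates came from separate cultures, so p values measure the spread between these libraries, which may be technical.

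Library totals were between 32225646 and 44099898 expected counts, and 1 CPM, the unit of level used here (counts scaled to a common library total), stood for 32.2 to 44.1 counts. As a check of the labels, the mean level of THUMPD1 was 80.9 CPM ± 3.65 in WT against 11.04 CPM ± 0.918 in the KO line (SD, n = 3 each). Of the markers of HEK-293T cells, VIM and CDH2 were at 106 CPM or more in every library. NEFM was between 4.54 and 44.7 CPM, highest in a WT library and lowest in a THUMPD1 KO library. PAX2 and LHX1 were between 1.14 and 4.63 CPM, each lowest in a WT library and highest in a THUMPD1 KO library. No test of these markers between genotypes is given here. PTPRC, ALB and MYH7, which mark leukocytes, hepatocytes and muscle, had at most 4 counts in any library. EPCAM, which marks epithelium, was below 1 CPM, and COL1A1, a fibroblast collagen gene, was between 9.0 and 17.0 CPM.

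Mitochondrial DNA is a small circle carried in many copies per cell. Its mRNAs encode core subunits of respiratory complexes I, III and IV and of the ATP synthase (complex V), and its rRNAs and tRNAs serve the ribosome that translates them inside the organelle. Each strand is transcribed as a long precursor by the polymerase POLRMT with the factor TFAM, and the tRNAs that stand between the other genes are cut out, which releases the mRNAs and rRNAs. Levels of single transcripts are then set largely by processing and stability, in which the LRPPRC and SLIRP complex takes part.

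All 37 members matched a gene of the same symbol on chrM of GRCh38 (GENCODE 44), a sequence of 16569 bases. Of the mRNAs, 12 are read from the plus strand, and MT-ND6 from the minus strand. The 2 mRNAs with the largest differences between genotypes, MT-ND2 and MT-ND3, are each bounded on both sides by a tRNA gene with no base between them. The rRNA genes MT-RNR1 and MT-RNR2 are bounded in the same way. The junctions of the 2 mRNAs are shown on the plus strand with the mRNA in capitals. A fragment that crosses such a junction comes from RNA that has not been cut there. These junctions lie at chrM:4450-4489, chrM:5492-5531, chrM:10039-10078 and chrM:10385-10424.
MT-TM to MT-ND2: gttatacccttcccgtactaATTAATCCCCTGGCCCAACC
MT-ND2 to MT-TW: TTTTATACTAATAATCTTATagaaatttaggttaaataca
MT-TG to MT-ND3: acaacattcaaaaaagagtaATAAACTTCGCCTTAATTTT
MT-ND3 to MT-TR: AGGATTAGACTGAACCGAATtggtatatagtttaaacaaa

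In contrast, 2 pairs of mRNAs overlap and are known to stay joined as a single RNA, MT-ATP8 with MT-ATP6 and MT-ND4L with MT-ND4. Capitals mark the bases that lie in both genes, 46 for the first pair (chrM:8507-8592) and 7 for the second (chrM:10740-10786). How fragments that span both genes of a pair were counted is not given in the sources used here.
MT-ATP8 and MT-ATP6 overlap: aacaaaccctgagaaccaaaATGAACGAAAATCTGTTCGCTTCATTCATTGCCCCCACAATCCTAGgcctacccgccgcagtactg
MT-ND4L and MT-ND4 overlap: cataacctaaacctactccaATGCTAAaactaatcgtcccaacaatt

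The first question was whether mitochondrial genes took a larger or smaller share of the counts in THUMPD1 KO libraries. Mitochondrial genes took 3.25, 3.01 and 2.81% of the counts of the WT libraries and 3.11, 3.32 and 3.10% of the THUMPD1 KO libraries, numbered by replicate. The means were 3.02% ± 0.221 (SD, n = 3) and 3.18% ± 0.124 (SD, n = 3), and the genotypes overlapped. After rRNA depletion, nearly all of these counts came from the mRNAs, which took 3.01% ± 0.216 in WT and 3.17% ± 0.125 in THUMPD1 KO (SD, n = 3 each). WT replicate 3 had the lowest CPM of the 6 libraries for 11 of the 13 mRNAs, and THUMPD1 KO replicate 2 the highest for 6. These shares are relative to all other RNA left in the library, so they do not give an amount per cell. In bulk libraries, the number of mitochondria per cell and the amount of RNA in each cannot be told apart.

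The second question was whether single transcripts changed. The 15 mRNAs and rRNAs passed the filter of 1 CPM in at least 3 libraries, and none of the 22 tRNAs did. In the comparison of the study's kind (limma-voom on quantile normalized counts, two-sided, p values adjusted by Benjamini-Hochberg over 15088 genes, threshold 0.05), 6 of the 15 were called, 5 higher in THUMPD1 KO and 1 lower. Over all genes tested, 26.7% were called, 13.7% higher and 13.0% lower. The higher mRNAs were MT-ND1, MT-ND2, MT-ND3, MT-ND6 and MT-ATP6, and the lower was MT-CYB. The median log2 fold change was 0.11 over the 13 mRNAs and 0.02 over all genes tested.

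Quantile normalization gives each gene a value set by its rank in its library, and mitochondrial mRNAs are among the most abundant RNAs. MT-CO3 was the 8th and MT-ND4 the 9th most abundant gene in every library, so both had a log2 fold change of 0.00 by construction. The same comparison with TMM library sizes, which scale each library by a single factor, was therefore set beside it. It called 3 of the 15 members, MT-ND1, MT-ND2 and MT-ND3, all higher, against 25.8% of all genes tested (12% higher, 13.9% lower). With the replicate number as a block, TMM library sizes gave 8 calls (34.5% of all genes), adding MT-ND6, MT-ATP6 and MT-ATP8 as higher and MT-CO1 and MT-RNR2 as lower. In CPM, MT-ND6 and MT-ATP6 were higher in THUMPD1 KO in 3 of 3 same-numbered pairs. For MT-ATP8 this held in 2 pairs, for MT-RNR2 in 1 and for MT-CO1 in 0. MT-CYB is in neither TMM list. MT-ND2 and MT-ND3 were called under each of the 23 alternatives run.

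**Figure D1:**
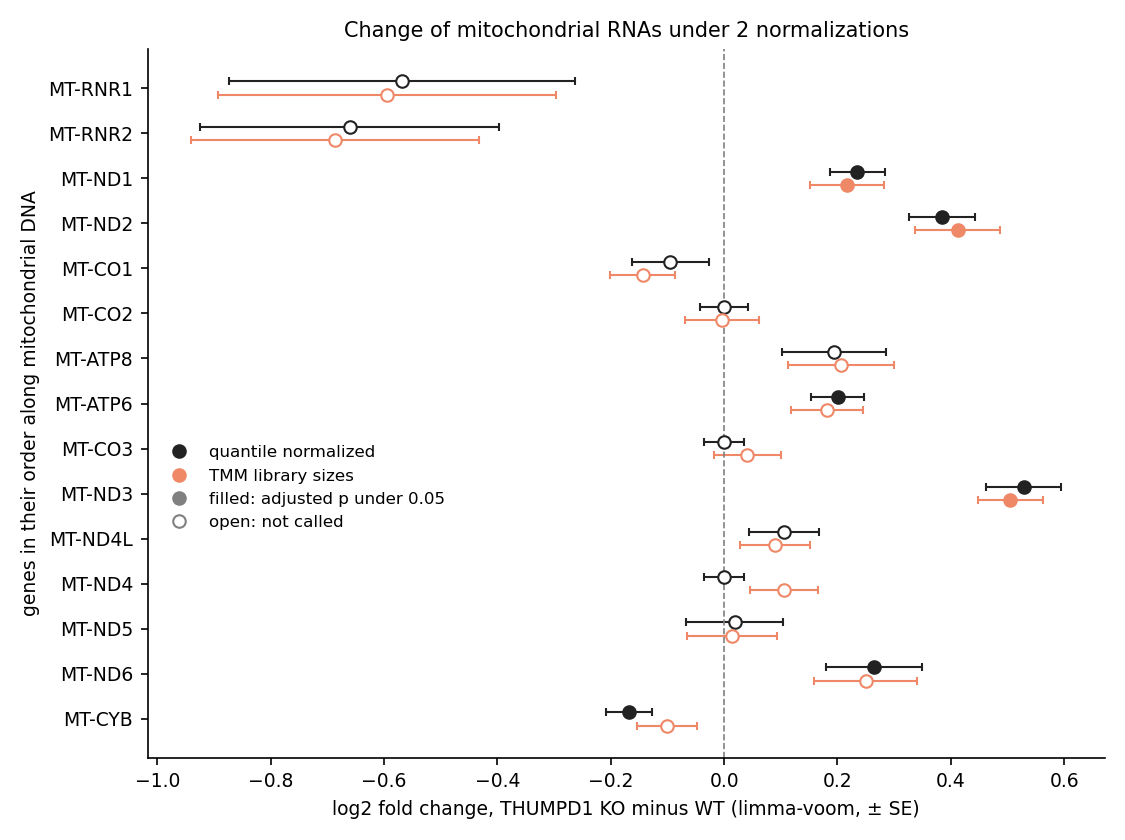
Log2 fold change (THUMPD1 KO minus WT, limma-voom, bars ± SE) of the 15 tested mitochondrial RNAs, in their order along mitochondrial DNA, after quantile normalization (black) and with TMM library sizes (orange). Filled points have an adjusted p under 0.05: 6 with quantile normalization and 3 with TMM library sizes, and MT-ND3 lies farthest to the right under both.

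Complex I, the NADH dehydrogenase that feeds electrons into the chain, takes 7 of its subunits from mitochondrial DNA, and 4 of these mRNAs were called as higher, against 13.7% of all genes tested. With TMM library sizes 3 of the 7 were called as higher, against 12% of all genes. MT-ND3 (ENSG00000198840.2, chrM 10059 to 10404, plus strand), a small membrane subunit, was at 418, 382 and 352 CPM in WT and 569, 566 and 526 CPM in THUMPD1 KO. The genotypes did not overlap, and the THUMPD1 KO mean was 1.44 times the WT mean. On the log2 scale MT-ND3 differed by 0.53 (SE 0.066, adjusted p = 0.000289 by limma-voom), and by 0.50 with TMM library sizes (adjusted p = 0.000115).

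MT-ND2 (ENSG00000198763.3, chrM 4470 to 5511, plus strand), a proton-pumping membrane subunit, was at 2002, 2047 and 1806 CPM in WT and 2419, 2932 and 2596 CPM in THUMPD1 KO. All THUMPD1 KO libraries lay above all WT libraries, the mean being 1.36 times that of WT. The log2 difference was 0.38 (SE 0.058, adjusted p = 0.000896 by limma-voom), and 0.41 with TMM library sizes (adjusted p = 0.00223). MT-ND1 (ENSG00000198888.2, chrM 3307 to 4262, plus strand), the subunit at the junction of the membrane arm and the quinone site, was at 1646, 1661 and 1506 CPM in WT. In THUMPD1 KO it was at 1754, 2051 and 1894 CPM, again without overlap. The log2 difference of 0.24 (SE 0.048, adjusted p = 0.00493 by limma-voom) was smaller, and with TMM library sizes it was 0.22 (adjusted p = 0.0318). In TMM fits on 5 libraries the MT-ND1 call was lost when WT replicate 3 or either of THUMPD1 KO replicates 2 and 3 was left out, with adjusted p values of up to 0.133.

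MT-ND6, the light-strand mRNA, was at 204, 215 and 178 CPM in WT and 208, 251 and 265 CPM in THUMPD1 KO, and the genotypes overlapped. The log2 difference was 0.26 (SE 0.085, adjusted p = 0.0411 by limma-voom), while TMM library sizes gave 0.25 (adjusted p = 0.0638). It was higher in THUMPD1 KO in each of the 3 same-numbered pairs, and it was called in both fits with the replicate block (limma-voom adjusted p = 0.0225 after quantile normalization and 0.0214 with TMM library sizes). MT-ND6 was not called by edgeR (adjusted p = 0.0672), by DESeq2 (adjusted p = 0.162) or with no CPM filter (limma-voom adjusted p = 0.0972). Without the block, the MT-ND6 call was lost when WT replicate 3 or either of THUMPD1 KO replicates 2 and 3 was left out (adjusted p up to 0.163 in the quantile normalized fits). MT-ND6 lies opposite the precursor of the other strand, and whether counting used strand is not given in the sources used here, so antisense reads could be part of its count. The remaining complex I mRNAs were not called. Their log2 fold changes were 0.11 for MT-ND4L, 0.00 for MT-ND4 (0.11 with TMM library sizes) and 0.02 for MT-ND5, and their CPM ranges overlapped. When WT replicate 1 was left out, MT-ND4L was called as higher (adjusted p = 0.0067), and MT-ND4 was in the TMM fit (0.0232), both by limma-voom.

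Of the mRNAs for the ATP synthase, MT-ATP6, the proton channel subunit, was at 2562, 2399.7 and 2148 CPM in WT and 2664, 2870.2 and 2658 CPM in THUMPD1 KO. The genotypes did not overlap. The log2 difference was 0.20 (SE 0.046, adjusted p = 0.00938 by limma-voom), and with TMM library sizes it was 0.18 (adjusted p = 0.0550), which missed the threshold. It was lost without WT replicate 3 as well (0.0698). MT-ATP8, the small subunit encoded on the same RNA, was at 320.1 CPM ± 46.4 in WT and 374 CPM ± 35.6 in THUMPD1 KO (SD, n = 3 each), a log2 fold change of 0.19 that did not pass (limma-voom adjusted p = 0.140). MT-ATP8 passed with TMM library sizes and the replicate block (0.0348), and with WT replicate 1 left out (0.0197).

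MT-CYB, the cytochrome b of complex III, was at 2509, 2308 and 2164 CPM in WT and 2231, 2212 and 2167 CPM in THUMPD1 KO. The THUMPD1 KO libraries lay inside the WT range. After quantile normalization the log2 difference was −0.17 (SE 0.041, adjusted p = 0.0118 by limma-voom), with a rank of 16 in every WT library and 17 or 18 in THUMPD1 KO. With TMM library sizes it was −0.10 and not called (adjusted p = 0.186), nor was it called in the TMM fit with the replicate block (0.0986). The quantile normalized call was lost when THUMPD1 KO replicate 2 or replicate 3 was left out (up to 0.0688).

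The complex IV mRNAs, for the catalytic core of cytochrome c oxidase, had the highest mean levels per kilobase of gene length in both genotypes. The ranges of MT-CO2 and MT-ATP6 overlapped in both, however. Nuclear copies, whose counts are not part of these levels, held 13.4 to 14.6% of the MT-ATP6 count and at most 0.0722% of the MT-CO2 count. In CPM, MT-ND4 was above MT-CO2. MT-CO1 was at 8014, 7554 and 7138 CPM in WT and 6783, 7299 and 6827 CPM in THUMPD1 KO, with overlap. Its log2 fold change was −0.09 (limma-voom adjusted p = 0.330) after quantile normalization, where it ranked 5th or 6th in every library. With TMM library sizes it was −0.14 (adjusted p = 0.0904), and it was called as lower in the TMM fit with the replicate block (0.0444) and by edgeR (0.0334). The edgeR test called 6 of the 15 members, against 25.7% of all genes tested. MT-CO2 and MT-CO3 were not called, with log2 fold changes of 0.00 each after quantile normalization and of −0.0043 and 0.041 with TMM library sizes. In CPM, the groups did not overlap for 4 of the 15 members, MT-ND1, MT-ND2, MT-ND3 and MT-ATP6, each higher in THUMPD1 KO. Over all genes tested this held for 42.2%, 24.5% higher and 17.6% lower.

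**Figure D2:**
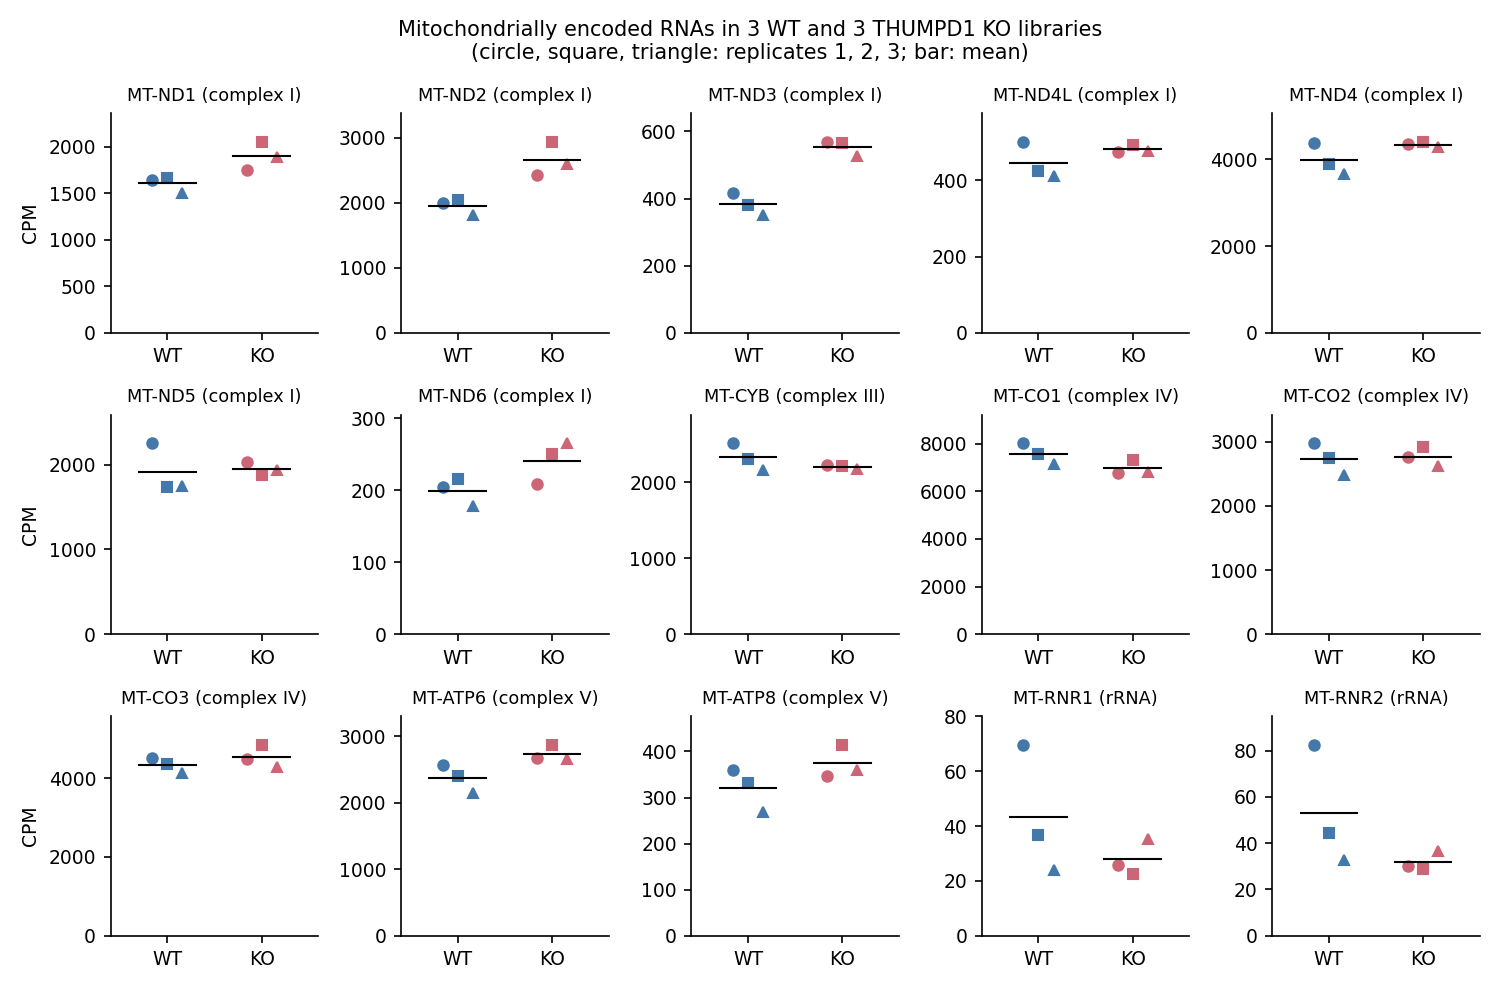
CPM (linear axis from 0) of the 13 mitochondrial mRNAs and 2 rRNAs in each WT (blue) and THUMPD1 KO (red) library; symbols mark replicate numbers and bars the means. For MT-ND3 the THUMPD1 KO points, at 526 to 569 CPM, lie above the WT points, at 352 to 418 CPM, while for MT-CO2, MT-CO3 and MT-ND5 the points intermingle.

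The make-up of the mitochondrial mRNA pool does not depend on scaling between libraries, so each mRNA was next expressed as a share of the counts of the 13 mRNAs in its own library. No test was applied to these shares, which sum to a fixed total, so a larger share of some mRNAs leaves less for the rest. MT-CO1 held 24.8, 25.1 and 25.5% of the pool in WT and 21.8, 22.0 and 22.1% in THUMPD1 KO. MT-CYB held 7.76, 7.68 and 7.73% in WT against 7.18, 6.68 and 7.02% in THUMPD1 KO. For both, every THUMPD1 KO library was below every WT library.

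The shares that lay higher without overlap were those of 5 mRNAs. In CPM, a different measure, 24.5% of all genes tested lay higher without overlap and 17.6% lower. MT-ND2 held 6.19, 6.81 and 6.45% in WT against 7.78, 8.85 and 8.40% in THUMPD1 KO. MT-ND3 held 1.29, 1.27 and 1.26% in WT against 1.83, 1.71 and 1.70% in THUMPD1 KO. The others were MT-ND1 (means of 5.33% and 5.99%), MT-ATP6 (7.86% and 8.61%) and MT-ATP8 (1.06% and 1.18%, with the lowest THUMPD1 KO value at 1.118% and the highest WT value at 1.113%). The shares of MT-CO2, MT-CO3, MT-ND4L, MT-ND4, MT-ND5 and MT-ND6 overlapped.

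Summed by complex, subunits of complex I held 34.7% ± 0.454 of the pool in WT and 38.2% ± 0.459 in THUMPD1 KO, and those of complex IV 48.6% ± 0.608 and 45.0% ± 0.517 (SD, n = 3 each). Complex V went from 8.92% ± 0.251 to 9.79% ± 0.112, and complex III from 7.72% ± 0.039 to 6.96% ± 0.256. In none of the 4 did the genotypes overlap, beside 42.2% of all genes tested without overlap in CPM. The 4 shares sum to the whole pool, so they are not separate results. The sums also do not stand for every member of a complex. Complex III is MT-CYB alone. In complex IV the mean share of MT-CO1 went from 25.1 to 22.0%, while the shares of MT-CO2 and MT-CO3 overlapped. In complex I that of MT-ND2 went from 6.48 to 8.35%, and the shares of MT-ND4L, MT-ND4, MT-ND5 and MT-ND6 overlapped.

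**Figure D3:**
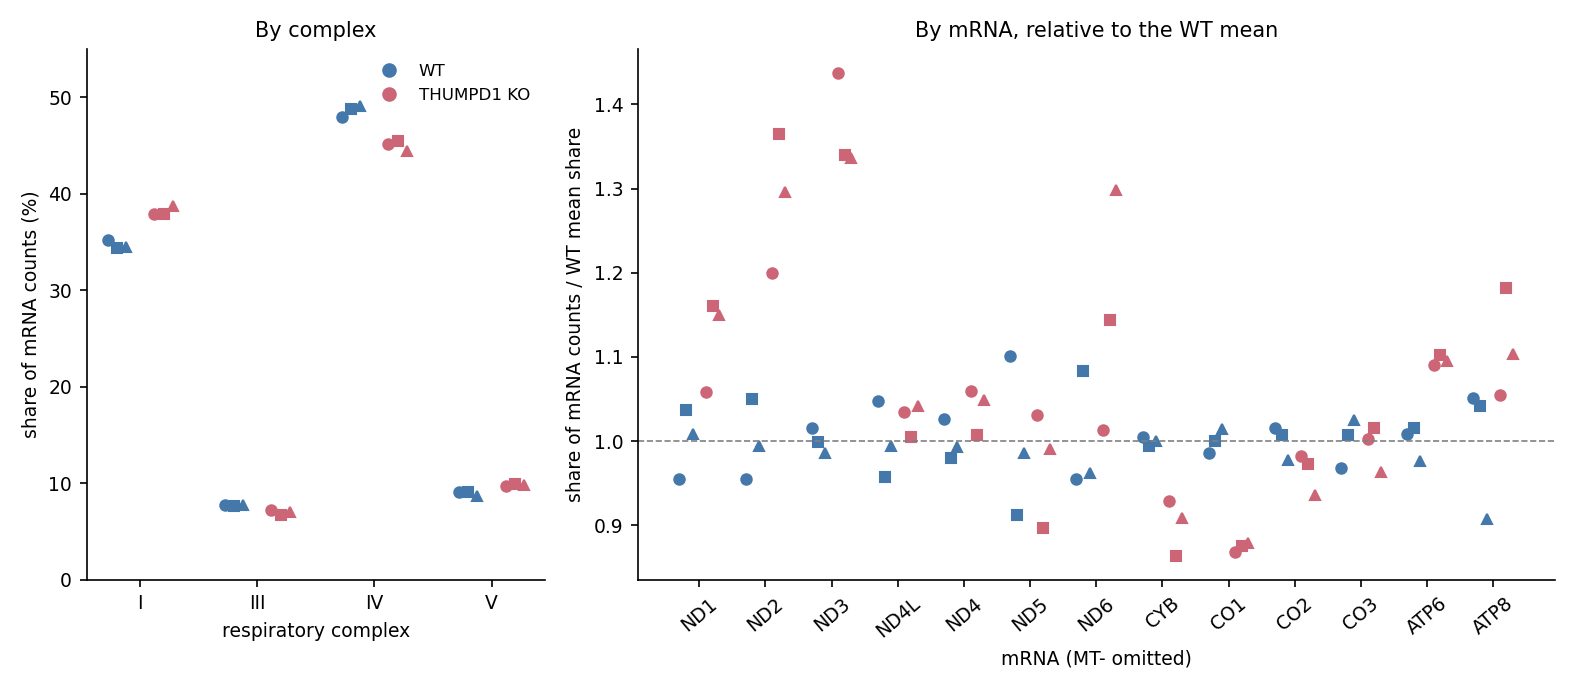
Left, share (%) of the counts of the 13 mitochondrial mRNAs held by the subunits of each respiratory complex in WT (blue) and THUMPD1 KO (red) libraries. Right, share of each mRNA divided by its WT mean share; circles, squares and triangles are replicates 1, 2 and 3, and the dashed line is the WT mean. Complex I goes from a mean of 34.7 to 38.2% and complex IV from 48.6 to 45.0%, with MT-ND3 and MT-ND2 highest and MT-CO1 and MT-CYB below the line.

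Ratios between pairs of transcripts were tested with a two-sided exact permutation test over the 20 groupings of the libraries, which cannot give a p below 0.1. MT-CYB over MT-ND1, the last and the first mRNA of the heavy-strand precursor, was 1.52, 1.39 and 1.44 in WT against 1.27, 1.08 and 1.14 in THUMPD1 KO. Its groups did not overlap, with a log2 difference of −0.32 (SE 0.080, exact p = 0.1, 0.4 adjusted over the 4 ratios). For the joined pairs the ratios differed by less than the spread between replicates. MT-ATP8 over MT-ATP6 was 0.135 ± 0.0082 in WT and 0.137 ± 0.0071 in THUMPD1 KO (SD, n = 3 each, exact p = 0.7), and MT-ND4L over MT-ND4 was 0.112 ± 0.0024 and 0.111 ± 0.0013 (SD, n = 3 each, exact p = 0.4). MT-RNR2 over MT-RNR1 was 1.25 ± 0.0959 and 1.16 ± 0.119 (SD, n = 3 each, exact p = 0.4). MT-ND6 relative to the sum of the other mRNAs was 0.635, 0.721 and 0.640% in WT against 0.675, 0.762 and 0.866% in THUMPD1 KO, with overlap and no test.

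Levels of different genes were compared per kilobase of gene length. In WT the order was MT-CO3 (5527 CPM per kilobase ± 239), MT-CO1 (4908 ± 284), MT-CO2 (3998 ± 362), MT-ATP6 (3480 ± 306), MT-ND4 (2885 ± 264), MT-CYB, MT-ND2, MT-ND1, MT-ATP8, MT-ND4L, MT-ND3, MT-ND5 and, at 379 CPM per kilobase ± 36.1, MT-ND6 (SD, n = 3 each). The WT ranges of neighbours overlapped from MT-CO2 to MT-ND4, from MT-CYB to MT-ND4L, and between MT-ND3 and MT-ND5. In THUMPD1 KO the order differed in 3 places: MT-ND2 (2542 CPM per kilobase ± 251) was 6th, MT-ND1 (1987 ± 155) 7th and MT-CYB (1931 ± 28.8) 8th. The THUMPD1 KO range of MT-ND2 lay above that of MT-ND1, while those of MT-ND1 (1835 to 2145) and MT-CYB (1899 to 1955) overlapped. In WT these had been at 1873 ± 123, 1678 ± 89.8 and 2039.7 ± 152 CPM per kilobase. The mRNAs of the joined pairs stood at unequal levels per kilobase, with MT-ATP6 above MT-ATP8 and MT-ND4 above MT-ND4L in both genotypes. In each pair the shorter gene was the lower (207 against 681 bases, and 297 against 1378). Because these pairs are known to stay joined, the order per kilobase need not be the order of abundance, above all for short genes. Counts given to nuclear copies, highest for MT-ATP6, are also left out of this order.

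The position of a gene on mitochondrial DNA and its base composition were set against the change across the 13 mRNAs. These points come from the same 6 libraries and genes are not independent replicates, so the correlations are descriptions without a test. With the log2 fold change of quantile normalized counts, Pearson's r was −0.64 for GC content, −0.52 for gene length, −0.57 for log2 CPM and −0.31 for the plus-strand position of the gene's midpoint, MT-ND6 of the other strand included. With TMM library sizes the values were −0.66, −0.50, −0.54 and −0.25. MT-ND3, with the largest change, has 40.2% GC, and MT-ND1, also called, has the highest GC content of the mRNAs at 47.7%.

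The rRNAs MT-RNR1 (12S) and MT-RNR2 (16S), the RNAs of the small and large mitochondrial ribosomal subunits, had been depleted before sequencing, and their counts are what was left. MT-RNR1 was at 69.7, 36.7 and 24.0 CPM in WT against 25.9, 22.4 and 35.1 CPM in THUMPD1 KO. MT-RNR2 was at 82.5, 44.2 and 32.6 CPM in WT and 30.3, 28.7 and 36.6 CPM in THUMPD1 KO. WT replicate 1 stood apart at the top for both, and the other 5 libraries overlapped. The log2 fold changes were −0.57 (SE 0.31, limma-voom adjusted p = 0.193) and −0.66 (SE 0.26, limma-voom adjusted p = 0.0878), and neither was called. With the replicate block MT-RNR2 was called (log2 fold change −0.72, adjusted p = 0.0227), one of 7 members called under the block against 35.1% of all genes. By edgeR it was called as well (0.0414). Without WT replicate 1 the values were −0.16 for MT-RNR1 and −0.29 for MT-RNR2, and without WT replicate 3 both were called (0.0192 and 0.00922).

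The nuclear 5.8S rRNA genes, which are depleted by the same kit, were summed as a measure of what depletion left. They were at 44.4, 42.3 and 27.9 CPM in WT and 18.3, 28.1 and 22.4 CPM in THUMPD1 KO, so WT replicates 1 and 2 were high for these as well. Their means were 38.2 CPM ± 8.95 in WT and 22.9 CPM ± 4.90 in THUMPD1 KO (SD, n = 3 each), with overlap. Whether the 5.8S level before depletion differs by genotype is not known here, so this sum need not measure depletion alone. The part of depletion in the mitochondrial rRNA values was not tested. Relative to the mRNA pool, mitochondrial rRNA was at 0.471, 0.269 and 0.202% in WT against 0.181, 0.154 and 0.232% in THUMPD1 KO, with overlap.

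**Figure D4:**
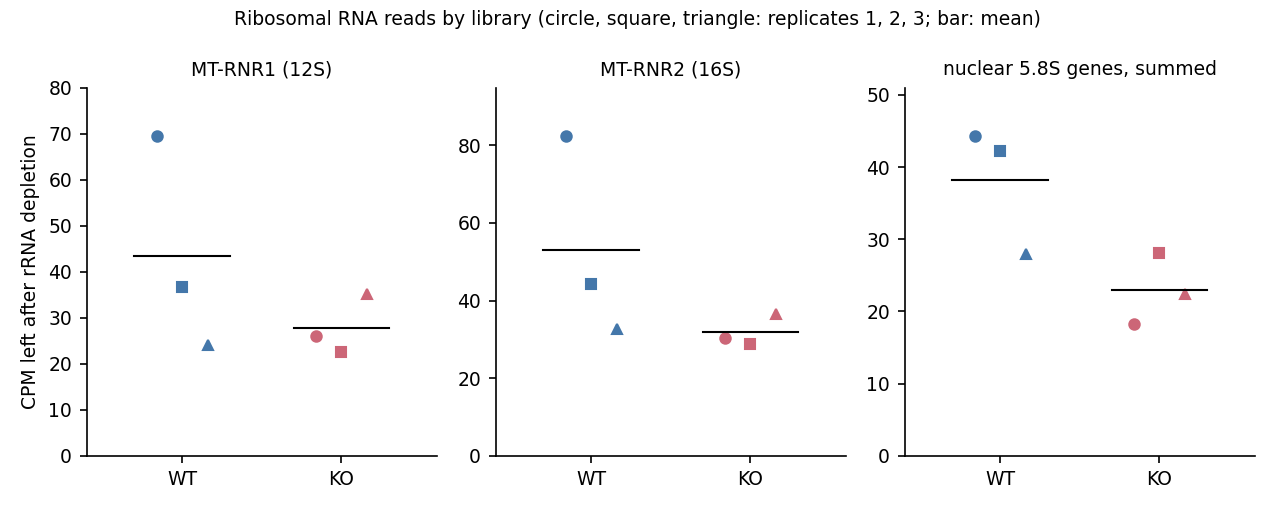
CPM (linear axis from 0) of MT-RNR1, MT-RNR2 and the summed nuclear 5.8S rRNA genes in WT (blue) and THUMPD1 KO (red) libraries; circles, squares and triangles are replicates 1, 2 and 3 and bars the means. WT replicate 1 is the highest library in each panel, at 69.7, 82.5 and 44.4 CPM.

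The 22 mitochondrial tRNAs were not measured at a usable depth. In the 6 libraries together they had 24 counts, 14 of the genes had none, and no gene had more than 3 counts in a library. At a limit of 3 counts a tRNA gene at 0 could be at up to 0.0680 to 0.0931 CPM depending on the library, for counting error only, so a difference between genotypes was not detectable at this depth. These genes are 59 to 75 bases long, and mature tRNAs that short are largely lost in libraries of this type. THUMPD1 serves acetylation of cytosolic tRNAs for leucine and serine at a cytidine in the sequence CCG, so the mitochondrial leucine tRNAs are shown with the anticodon in capitals, from chrM:3230-3304 and chrM:12266-12336, plus strand.
MT-TL1: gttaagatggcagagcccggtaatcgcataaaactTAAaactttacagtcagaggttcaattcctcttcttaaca
MT-TL2: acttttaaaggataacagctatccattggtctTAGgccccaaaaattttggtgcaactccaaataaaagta

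A search of the sense strand only found the letters CCG in 7 of the 22 mitochondrial tRNA genes (31.8%), and in MT-TL1 the first C is base 17 of the gene. MT-TL2, MT-TS1 and MT-TS2, the other mitochondrial leucine and serine tRNA genes, hold no CCG. MT-TL1 had 3 counts in THUMPD1 KO replicate 3 and 0 in the other libraries, and MT-TL2, MT-TS1 and MT-TS2 had 0 in every library.

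Copies of mitochondrial DNA in the nuclear genome can share reads with the members. The table holds 407 rows for such pseudogenes, of which 92 had a count. MTND2P28 (chromosome 1, 629640 to 630683), identical to MT-ND2 at 98.4% of aligned bases, had 5.92 to 7.14% of the count of MT-ND2, and its own log2 fold change was 0.43 (limma-voom adjusted p = 0.000831), beside 0.38 for MT-ND2. MTATP6P1 (chromosome 1, 633696 to 634376), 98.5% identical to MT-ATP6, had 13.4 to 14.5% of that gene's count and was not called (0.19, adjusted p = 0.0952). How reads were divided between these copies and their parents cannot be recovered from the table. With the copies added to their parents, 5 members were called against 26.7% of all genes in that fit, and MT-CYB was not among them (−0.12, limma-voom adjusted p = 0.0716). The copies of MT-CYB held only 0.176 to 0.252% of its own count. Why its call was lost in this fit was not tested.

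Last, 69 nuclear genes that transcribe, process, modify and stabilize mitochondrial RNA or keep mitochondrial DNA were examined. All were tested, and 14 (20.3%) were called, 10 higher and 4 lower, against 26.7% of all genes tested. The median log2 fold change of the list was 0.04, against 0.02 over all genes. With TMM library sizes the split was 7 higher and 6 lower among 13 calls, against 12% and 13.9% of all genes. Single libraries moved the count, which dropped to 6, 9 and 7 when THUMPD1 KO replicate 2, THUMPD1 KO replicate 3 and WT replicate 3, in turn, were left out. The shares of all genes called in those fits were 17.6, 18.6 and 18.1%.

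Of the transcription genes, POLRMT, the mitochondrial RNA polymerase, was at 84.2, 80.3 and 81.7 CPM in WT and 73.1, 70.5 and 78.8 CPM in THUMPD1 KO. It was lower without overlap (log2 fold change −0.16, limma-voom adjusted p = 0.0305), and the call was lost in 5 of the 6 fits that left out a library. TFAM, which packages mitochondrial DNA and starts its transcription, was at 150.5, 159 and 159 CPM in WT and 177, 179 and 174 CPM in THUMPD1 KO. All THUMPD1 KO libraries lay above all WT libraries (log2 fold change 0.17, limma-voom adjusted p = 0.00941). With TMM library sizes TFAM was called too (0.0333), but in none of the TMM fits that left out a library.

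SLIRP, the partner of LRPPRC in mRNA stability, was at 44.2, 51.2 and 51.9 CPM in WT and 53.6, 62.4 and 57.7 CPM in THUMPD1 KO. SLIRP differed by 0.24 on the log2 scale (limma-voom adjusted p = 0.0461), and with TMM library sizes it was not called (0.0697). LRPPRC itself was not called (−0.02, limma-voom adjusted p = 0.786). TBRG4 and FASTK, RNA-binding proteins of the FASTK family that act on mitochondrial transcripts, were lower, with log2 fold changes of −0.18 (limma-voom adjusted p = 0.0262) and −0.14 (0.0339). PTCD2, a protein with pentatricopeptide repeats linked to MT-CYB processing, was higher at 0.22 (limma-voom adjusted p = 0.0171). The calls for SLIRP, TBRG4, FASTK and PTCD2 were each lost when certain single libraries were left out, with adjusted p values up to 0.187, 0.0935, 0.113 and 0.0808.

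Among higher genes of other roles, not all of which are named, YRDC had the largest change (log2 fold change 0.36, limma-voom adjusted p = 0.0195). It is an enzyme of tRNA threonylcarbamoylation. Next were SLC25A33 (0.34, limma-voom adjusted p = 0.0111), a pyrimidine nucleotide carrier, and MTERF4 (0.25, adjusted p = 0.00819), which guides rRNA methylation. RNASEH1, which removes RNA from hybrids with DNA, followed (0.20, limma-voom adjusted p = 0.00852). TOP1MT, the mitochondrial topoisomerase, was at 29.0, 27.6 and 26.5 CPM in WT and 22.9, 23.1 and 23.8 CPM in THUMPD1 KO. It was lower without overlap (log2 fold change −0.25, limma-voom adjusted p = 0.00921) and kept its call under each of the 22 alternatives run for it. SLC25A33, MTERF4 and RNASEH1 kept their calls when any library was left out of the quantile normalized fit, but each lost it in at least 1 such fit with TMM library sizes (adjusted p up to 0.0607, 0.0613 and 0.0655). YRDC lost its call without THUMPD1 KO replicate 2 or 3 (adjusted p up to 0.0818). By role, calls in the direction of higher and lower numbered 1 and 1 of 7 transcription genes, 1 and 1 of 9 processing genes, 1 and 1 of 12 stability genes, 2 and 0 of 11 rRNA and mRNA modification genes, 3 and 0 of 15 tRNA modification genes and 2 and 1 of 15 genes of mitochondrial DNA upkeep, beside 13.7% higher and 13.0% lower of all genes tested.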

How the data were processed

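Libraries were 3 WT and 3 THUMPD1 KO, grouped and numbered by the sample labels. According to the methods and the labels, the authors aligned reads to GRCh38 (hg38) with STAR and used RSEM for counting. The deposited values are expected counts per gene, which need not be whole and carry no scaling between libraries. The authors filtered at 1 CPM, quantile normalized and used limma-voom. No strand setting is given in the sources used here, and multi-mapped reads are divided by RSEM.

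CPM values used the total of each library. The 15088 genes that reached 1 CPM in 3 or more libraries entered limma-voom (limma 3.58.1, R 4.3.3) after quantile normalization, with genotype as the only term. edgeR 4.0.16 and DESeq2 1.42.0 were run on rounded counts. The limma-voom and edgeR fits were tested on simulated data. Positions, GC content and sequences came from GENCODE 44 and GRCh38, in which 58517 IDs were found. Gene length is the length of the annotated gene. Identity with nuclear copies leaves out gaps.

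Named genes were all members, THUMPD1, POLRMT, TFAM, LRPPRC, SLIRP, and at most 5 highest and 5 lowest called genes of the rest of the nuclear list. Members, lists and tests were chosen with earlier results of these data known. Planned p values for ratios of sums were not computed, because they are scores over members. Replicate numbers are shared between genotypes. Over 11717 genes, deviations from the genotype means correlated at 0.287, 0.257 and 0.162 for equal numbers and at −0.275 to 0.113 for different ones, so the numbers were taken to pair the libraries, and the replicate block was an alternative. TMM fits with the block or with a library left out were added after seeing the data. A marker gene of the cell line that was examined is not reported here.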

Additional observations from a re-analysis of the deposited data

How the results depend on the processing

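The count of mitochondrial genes called, 6 in the comparison reported first, was 3 with TMM library sizes, 3 with TMM factors estimated without mitochondrial genes, 5 with library sizes alone, 5 with no CPM filter, 6 by edgeR, 5 by DESeq2, 8 with sample quality weights, 7 with the replicate block and 8 with the block and TMM library sizes. Leaving out a library gave 4 to 8 calls, and with TMM library sizes 2 to 7. Without WT replicate 1 there were 8 (7 with TMM), and with TMM there were 2 when THUMPD1 KO replicate 2 was left out, as when replicate 3 of that line was. Of all genes tested, 26.7% were called in the comparison reported first, 25.8% under either TMM setting, 25.9% with library sizes alone, 10.1% with no CPM filter, 25.7% by edgeR, 24.3% by DESeq2, 36.5% with sample quality weights, 35.1% with the block and 34.5% with the block and TMM. With a library left out it was 17.6 to 28.1%, or 16.9 to 28.2% with TMM, the highest being without WT replicate 1 and the lowest without THUMPD1 KO replicate 2 in both. The count of 14 nuclear genes was 7 with no CPM filter, where more genes were tested, 13 with TMM library sizes and 19 with the replicate block, and leaving out a library gave 6 to 13, or 3 to 12 with TMM library sizes. Over 609 refits of single named genes, 484 kept their side of the threshold with no change of sign, 100 lost a call, 18 gained one and 7 changed sign, all of genes that were not called. A sign change was not counted where either value was under 0.001 in size, as for MT-CO1, MT-ND4, MT-CO2 (−0.065 to 0.045 over its alternatives) and MT-CO3 (−0.012 to 0.079). MT-ND5 ranged from −0.053 to 0.13 over the fits that left out a library, and in the same fits with TMM library sizes it was at −0.0073, −0.049 and −0.038 when THUMPD1 KO replicate 1, WT replicate 2 and WT replicate 3 were left out, and at up to 0.12 in the others. LRPPRC ranged from −0.043 to 0.0037. The log2 difference of MT-ATP8 over MT-ATP6 ranged from −0.027 to 0.059 (0.025 over all libraries), and that of the tRNA sum over the mRNA sum from −0.37 to 0.85 (0.38 over all libraries). The cause was not tested. Besides MT-RNR2 the replicate block on quantile normalized counts changed the call of no member. The share of mitochondrial counts differed by 0.154 percentage points, and by 0.0458 to 0.267 with a library left out. Counts of 3 or fewer per library left tRNA genes without a test, and rRNA values are what depletion left.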
